A study of Oryza sativa with 4 samples.

Results

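CYCLIN-P4-1-LIKE (Os07g0231500) is a rice gene that the authors' merged sheet of OsMADS2-bound regions names as a relative of the P-type cyclin CycP4;1. It is 1 of the 2589 genes in that sheet. It was chosen by its identifier and because its peaks were strong, so its folds are given as a description and were not tested. All peaks of the 3 deposited lists that lay in the gene or within 4 kb of it were taken, 8 in all. The study profiled wild-type rice panicles (line TP309) of 0.3 to 2 cm by chromatin immunoprecipitation and sequencing (ChIP-seq). Chromatin was cut with micrococcal nuclease and precipitated with an anti-OsMADS2 antibody (IP5 and IP6) or with rabbit IgG as a mock control (mock 5 and mock 6). The numbers 5 and 6 mark 2 biological replicates, and all 4 libraries come from wild-type tissue. Whole panicles were used, so a peak cannot be placed in a cell type.

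OsMADS2 is a PISTILLATA-like MADS-domain transcription factor, one of the floral regulators known for their part in lodicule and stamen identity. Cyclins bind and activate cyclin-dependent kinases. P-type cyclins, also called U-type in plants, resemble Pho80 of budding yeast, a cyclin of phosphate signalling, and in Arabidopsis they bind the kinase CDKA. Most other plant cyclins are known for driving steps of the cell cycle, D-type cyclins at its entry among them.

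The libraries held 9142837 (IP5), 15934402 (IP6), 13248694 (mock 5) and 16742118 (mock 6) uniquely mapped reads. IP5 was the shallowest. Each peak list sets 1 IP library over 1 mock library, and the lists are written IP5/mock 5 (24169 peaks), IP5/mock 6 (58213) and IP6/mock 6 (10602). The fold of a peak is the authors' own value, the IP signal relative to a background estimated in peak calling with the mock as control. It need not equal the ratio of IP to mock signal at that place. It carries no replicate error, since each list is a single pair of libraries. The IP5 lists share IP5 and the mock 6 lists share mock 6, so only IP5/mock 5 and IP6/mock 6 are free of common libraries.

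A strong peak crossed the start of CYCLIN-P4-1-LIKE in every list. The gene lies on the plus strand of chromosome 7, from 7313552 to 7314685, and is 1134 bp long in the authors' sheet. In IP5/mock 5 the start peak ran from 7313352 to 7314095 with a fold of 9.11 and a q of 2.04e-42. In IP5/mock 6 it ran from 7313351 to 7314608, also with a fold of 9.11, and its q was 1.51e-42. In IP6/mock 6 it ran from 7313272 to 7313667, with a fold of 11.7 and a q of 5.18e-71. Folds of 5 or more were uncommon in the lists, at 3.72% of peaks in IP5/mock 5, 0.778% in IP5/mock 6 and 1.52% in IP6/mock 6. Because the gene was chosen for these folds, nothing is read from its place above that line.

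The 3 start peaks began close together and ended far apart. Counted from the first base of the gene, they began at -200, -201 and -280 bp in the order given above. Their right edges lay at 543, 1056 and 115 bp. The stretch common to all 3 was 316 bp long (7313352 to 7313667), with 200 bp before the gene and 116 bp inside it. That stretch was 79.8% of the IP6 peak and 42.5% of the IP5/mock 5 peak. IP6, the deeper IP library, thus gave a peak of 396 bp around the start, whereas IP5 gave 744 bp over mock 5 and 1258 bp over mock 6. Fragments of 150 to 900 bp went into the immunoprecipitation, so edges cannot be read as edges of a binding site.

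A weaker signal lay deeper in the gene. IP5/mock 5 had a separate peak of 384 bp there (7314222 to 7314605), with a fold of 2.18 and a q of 0.000541. IP6/mock 6 had one of 167 bp (7314190 to 7314356), with a fold of 2.39 and a q of 0.0111. These inner peaks shared 135 bp, from 670 to 804 bp after the gene start. In IP5/mock 6 the same stretch was inside the single long peak and had no peak of its own. Between start peak and inner peak the gap was 126 bp in IP5/mock 5 and 522 bp in IP6/mock 6. Both inner peaks stood low in their lists, since 87.0% of the IP5/mock 5 peaks and 77.8% of the IP6/mock 6 peaks had folds at least as high.

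**Figure D1:**
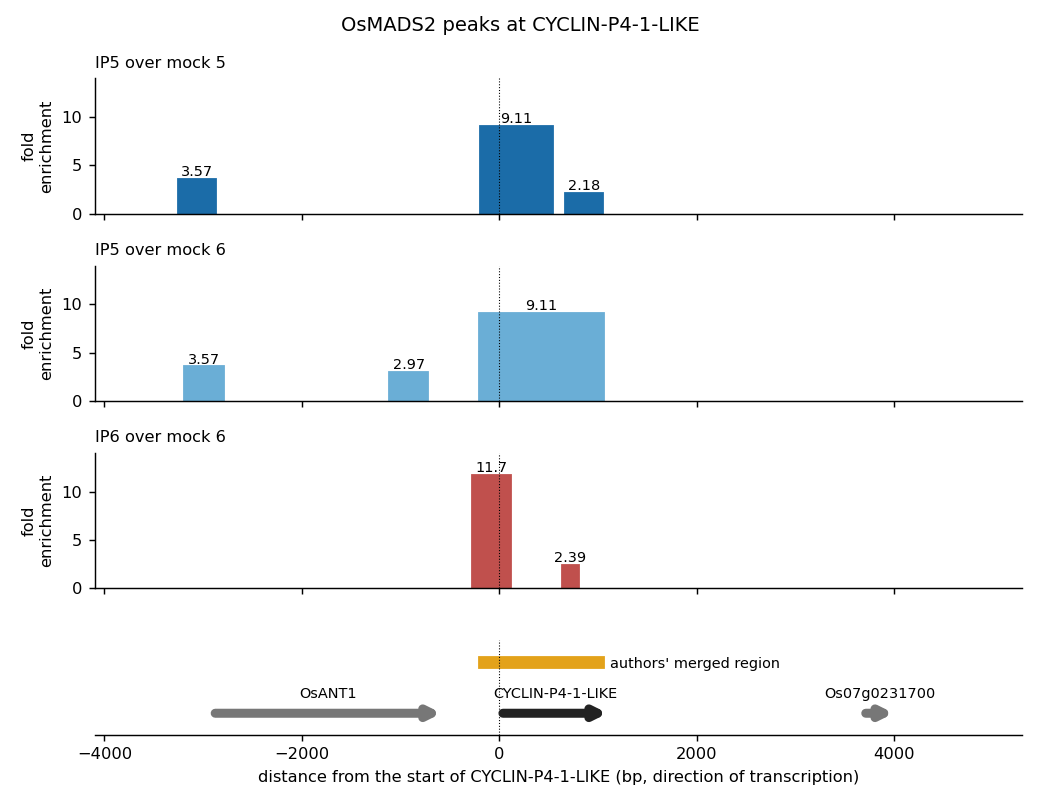
Peaks of the 3 lists around CYCLIN-P4-1-LIKE. The x axis is the distance from the gene start in bp, each box spans 1 peak and its height is the authors' fold, and arrows show the genes in their direction of transcription. The start peaks reach 9.11, 9.11 and 11.7, and every other peak within 4 kb is at 3.57 or below.

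The merged region that the authors assigned to the gene, 7313351 to 7314608, has exactly the limits of the long IP5/mock 6 peak. It covered 1057 bp of the gene (93.2%), with 201 bp before the start and all but the last 77 bp of the gene. The strong IP6 peak began 79 bp before this region. Of the 5 peaks that touch the gene, the authors' sheet of shared peaks holds 3, namely the long IP5/mock 6 peak and both inner peaks. The start peaks of IP5/mock 5 (9.11) and of IP6/mock 6 (11.7) are not in that sheet. In it, the region is therefore represented in IP6 only by the 167 bp peak of fold 2.39. That peak has a q above 0.01, whereas the q of the IP6 start peak is far below it.

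The IP5 start peak had the same fold over either mock, although its width differed and a separate inner peak was called only over mock 5. The start peak had a fold of 9.11227 and a −log10 p of 47.4812 over mock 5, and the same deposited digits over mock 6. The peak at the 5′ side of OsANT1 behaved alike, with 3.57103 and 9.19919 in both. Such identity was uncommon: of 17088 IP5/mock 5 peaks that overlap an IP5/mock 6 peak, 608 (3.56%) had the same fold and the same p. Among those with a fold of 5 or more over mock 5 it was 21 of 758 (2.77%). In IP5/mock 6, 1 other peak in the genome shared both values with the start peak. The files hold no separate IP and mock signal, so the mock level at the gene is not known here.

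Other peaks within 4 kb lay upstream, in or at the neighbouring gene OsANT1 (Os07g0231400, 7310637 to 7313002, same strand). IP5/mock 5 had a peak there of fold 3.57 (7310298 to 7310684, q = 2.29e-07), and IP5/mock 6 one of fold 3.57 (7310358 to 7310760, q = 1.5e-07). Both cross the start of OsANT1, and their near edges are 2867 and 2791 bp from CYCLIN-P4-1-LIKE. IP5/mock 6 alone had a further peak inside OsANT1 (7312439 to 7312833), with a fold of 2.97, 718 bp from the cyclin gene. No IP6 peak lay upstream within the window, and no list had a peak between the end of the cyclin gene and 4 kb beyond it. The upstream peaks were thus called from IP5 only, the library with fewer reads. None of the 3 is in the sheet of shared peaks.

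The authors assigned the merged region to OsANT1 and Os07g0231700 too. The region begins 348 bp after the end of OsANT1 and ends 2619 bp before the start of Os07g0231700, a gene of 357 bp on the same strand. It overlaps CYCLIN-P4-1-LIKE alone of the 3. Assignment was by distance, and these files hold no expression values that could tell which gene responds.

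No other peak within 500 kb on either side had a fold as high as the start peak in any list. The gene was chosen for its strong peaks, so nothing is read from this about the locus. Within 50 kb on either side, IP6/mock 6 had no peak besides the pair at the gene. IP5/mock 5 had 5 others, with a highest fold of 4.43, and IP5/mock 6 had 10, with a highest fold of 3.23. Within 100 kb the highest other folds were 4.75, 5.52 and 2.77 in IP5/mock 5, IP5/mock 6 and IP6/mock 6. Within 500 kb they were 5.31, 5.52 and 4.05, from 71, 139 and 18 other peaks. The 4 kb window left out little nearby: the nearest peak beyond it was 8737 bp upstream in IP5/mock 5 (fold 2.03), 8634 bp upstream in IP5/mock 6 (2.77) and 72857 bp upstream in IP6/mock 6 (2.71).

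**Figure D2:**
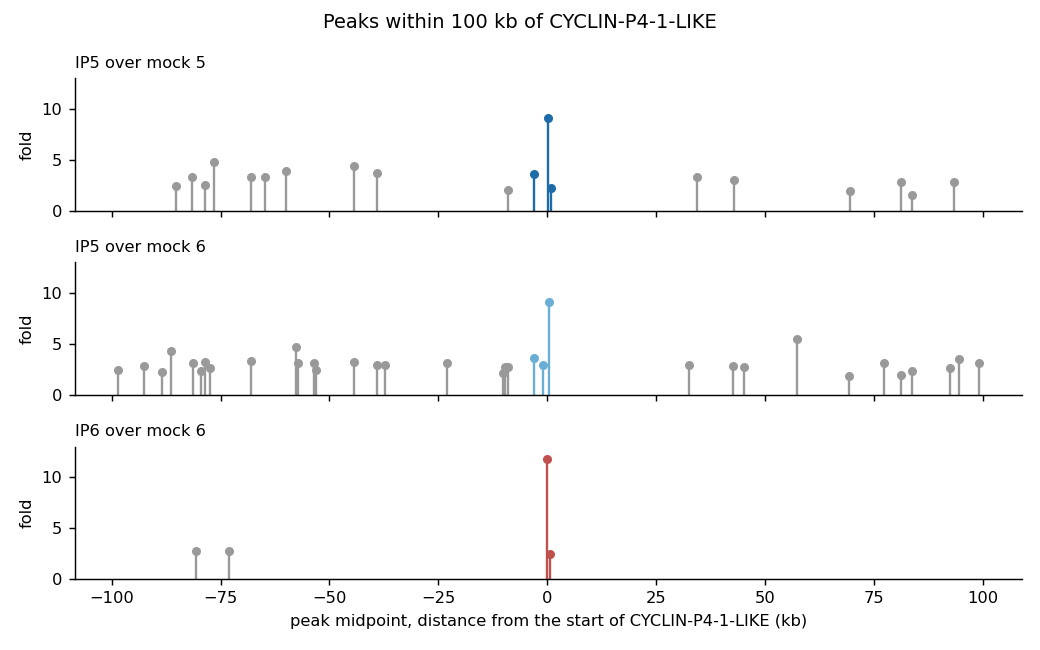
Peaks within 100 kb of CYCLIN-P4-1-LIKE in each list. Each stem is 1 peak, placed by its midpoint in kb from the gene start, and its height is the authors' fold; coloured stems are the peaks within 4 kb of the gene and grey stems all others. IP6/mock 6 has 2 grey stems (2.77 or below) beside the start peak at 11.7.

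On chromosome 7 no peak had a higher fold than the start peak in any list, out of 1952, 4451 and 780 peaks, though 1 tied with it in IP5/mock 6. Over all chromosomes it ranked 4th in IP5/mock 5, 3rd (tied with 1 other peak) in IP5/mock 6 and 7th in IP6/mock 6. The highest folds of the lists were 10.8, 12.7 and 31.7. By q the order was lower, with ranks of 6, 8 and 20. Among the 1442 merged regions, which hold none of the peaks of higher fold, the region had the highest fold in every list, tied with 1 other in IP5/mock 6. The median highest folds of those regions were 3.31, 3.82 and 3.08. Because the gene was chosen for its strong peaks, nothing is read from these ranks. A region's highest fold counts every peak that touches it, whether or not the peak is in the sheet of shared peaks. For this region the shared peaks had folds of 2.18 in IP5/mock 5, 9.11 in IP5/mock 6 and 2.39 in IP6/mock 6. In IP5/mock 5 and IP6/mock 6 its place thus rests on start peaks outside that sheet. The upstream peaks stood lower than the start peak but above the middle of their lists. In IP5/mock 5, 28.2% of peaks had folds at least as high, and in IP5/mock 6 14.4% and 38.1%. For the inner peaks it was 87.0% in IP5/mock 5 and 77.8% in IP6/mock 6.

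**Figure D3:**
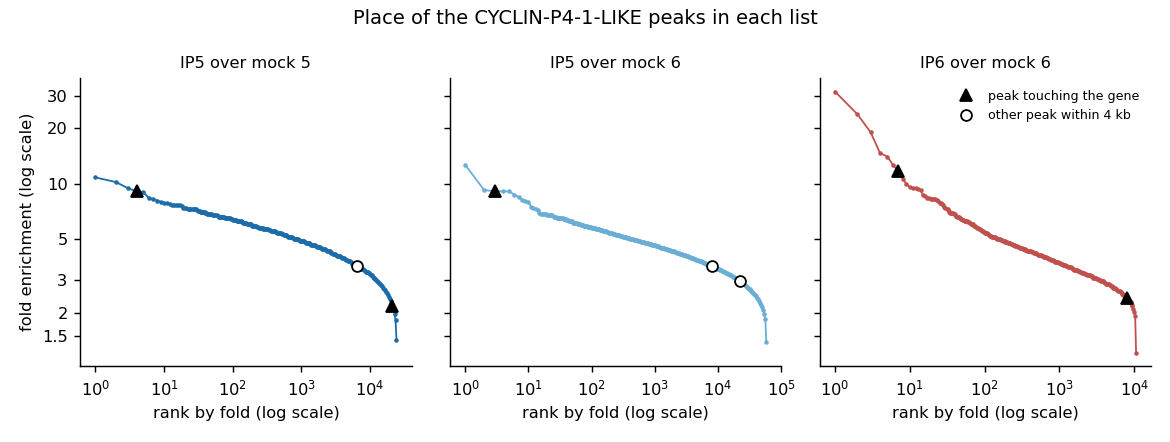
Folds of each list in descending order. The x axis is the rank and the y axis the authors' fold, both on log scales; triangles mark peaks touching CYCLIN-P4-1-LIKE and open circles the other peaks within 4 kb. The start peaks rank 4th, 3rd and 7th, and the other marked peaks have folds of 3.57 or below.

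The region covered most of the gene. At 1258 bp it was the 135th widest of the 1442 merged regions (median 553 bp), and with 5 peaks in the 3 lists it held more than the median of 3. Of the 618 region-gene pairs in which a region crosses a gene start, 13 (2.10%) covered at least as large a part of the gene, against a median of 13.4%. Those pairs are 21.6% of all 2862 pairs. The gene is short: 87.4% of the pairs across a start have a gene at least as long, with a median of 3214 bp. The width of the region reflects the IP5 lists: the IP5/mock 6 peak covers 1057 bp of the gene and the pair of IP5/mock 5 peaks 544 and 384 bp, while the IP6 peaks cover 116 and 167 bp.

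The identity of the gene rests on the authors' sheet. The symbol CYCLIN-P4-1-LIKE stands in the merged sheet but not in the second deposited gene table, where the symbol of this gene is blank. It is the only 1 of the 2862 pairs whose symbol differs between them. RefSeq's gene table for another assembly (ASM3414082v1) names 29 cyclin genes, 3 of them P-type, and places the gene named CYCP4-1 on another chromosome. That table does not list the identifier Os07g0231500, so its protein could not be compared with those cyclins. The gene appears in 0 of the 77 terms of the authors' deposited table of enriched gene ontology terms. That table does not show whether the gene has other terms.

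Besides CYCLIN-P4-1-LIKE, 4 genes of the sheet have CYC in their symbol, with 6 merged regions. They are CycD6;1, CycD5;1, OsCycC_1 and CYC2. The last is no cyclin: its other symbols, OsCYP2 and LRT2 among them, name a cyclophilin, a peptidyl-prolyl isomerase. Only 879 of the 2589 genes have any symbol, so a cyclin without one would not be found. A highest fold of 5 or more occurred in 1 of the 6 regions in IP5/mock 5 (12.6% of all merged regions), 0 of 6 in IP5/mock 6 (11.7%) and 0 of 6 in IP6/mock 6 (4.37%). With so few regions the CYC genes cannot be told from that background. In all 3 lists at once, 14 of the 1442 regions (0.971%) reached 5, and the CYCLIN-P4-1-LIKE region was the only 1 of the 7 with CYC in the symbol to do so. It was chosen for that strength, which in IP5/mock 5 and IP6/mock 6 rests on start peaks outside the sheet of shared peaks.

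CycD6;1 (Os07g0556000, minus strand, chromosome 7, 22169522 to 22171723) is a D-type cyclin gene whose Arabidopsis namesake acts in formative divisions of the root. It is among the 15 genes of the sheet (0.579%) with 3 merged regions. The region across its start (22170982 to 22172014) had highest folds of 3.98 in IP5/mock 5, 4.99 in IP5/mock 6 and 3.26 in IP6/mock 6. The middle region (22170402 to 22170743) had 3.66, 4.26 and 2.22, and the one nearest the gene end (22169855 to 22170316) had 5.11, 3.75 and 2.30. Over these 3 regions signal was thus spread with no single dominant peak, unlike at CYCLIN-P4-1-LIKE, a difference that was not tested. Beyond the end of this gene, peaks of fold 5.88 (IP5/mock 6) and 5.69 (IP6/mock 6) overlapped, but IP5/mock 5 had none there. In their lists these were the highest peaks within 4 kb of it. A second gene, Os07g0556066, lies on the opposite strand over the same bases, so the regions of CycD6;1 cannot be assigned to one of them.

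CycD5;1 (Os12g0588800), another D-type cyclin gene, had 1 region (chromosome 12, 24621017 to 24622053) inside the gene, with folds of 3.32, 3.04 and 2.76 in IP5/mock 5, IP5/mock 6 and IP6/mock 6. Its IP5/mock 5 peak began 6 bp after the gene start, and its IP6 peak of 257 bp lay 556 to 812 bp after it. The sheet also gives this gene the synonym OsCYCD5;2, and RefSeq uses both names for separate genes. OsCycC_1 (Os09g0504400) is a C-type cyclin gene, a class known as the partner of the Mediator kinase. Its region (chromosome 9, 19507035 to 19507590) lay 3902 bp after the gene end, near the 4 kb limit, and other genes were closer. The folds there were 2.36, 3.04 and 3.02. Across the start of OsCycC_1 itself the IP5 lists had peaks of fold 2.77 (over mock 5) and 2.97 (over mock 6), but IP6/mock 6 had none there, and the sheet gives no merged region there. The cyclophilin gene CYC2 (Os02g0121300) was covered whole by its region (chromosome 2, 1115705 to 1117297), with 2.36, 4.32 and 3.89. In the regions of these 3 genes no fold reached 5, which is the case for 78.5% of all merged regions.

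**Figure D4:**
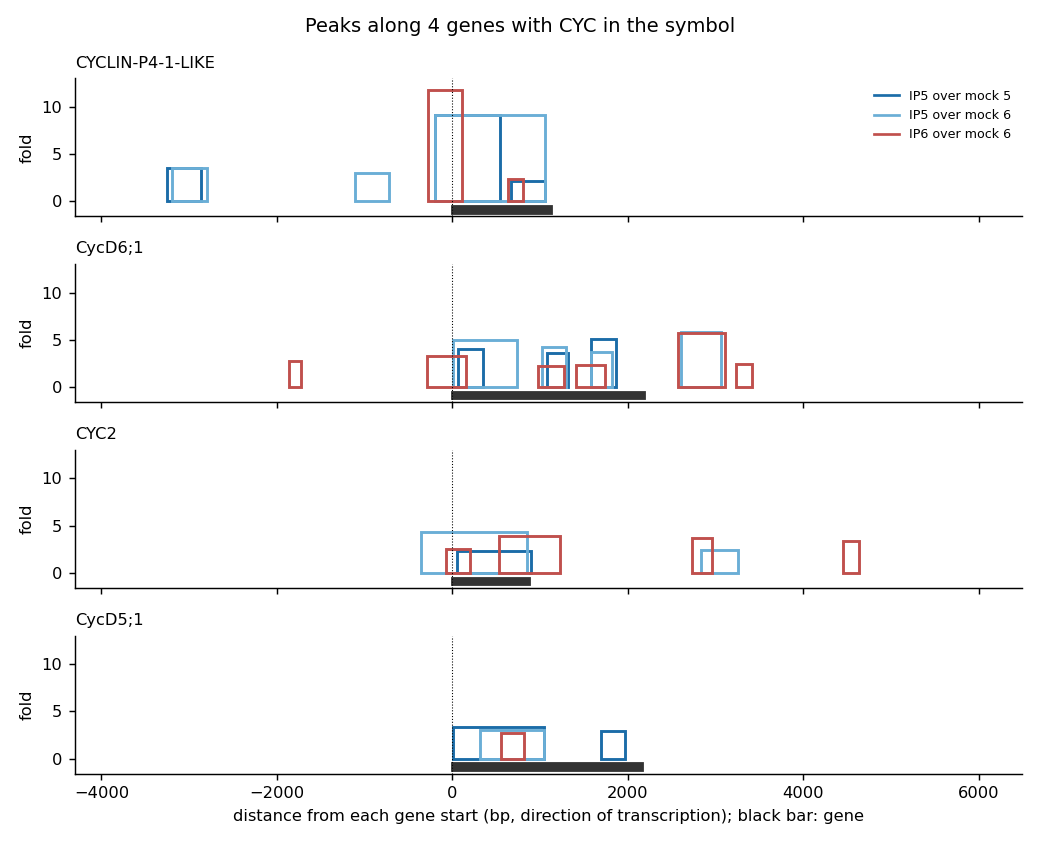
Peaks along 4 genes with CYC in the symbol. The x axis is the distance from each gene's start in bp in its direction of transcription, each outlined box spans 1 peak of the list its colour names, the box height is the authors' fold, and black bars are the genes. The start peaks of CYCLIN-P4-1-LIKE rise to 11.7, while no peak within 4 kb of the other genes exceeds 5.88.

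Of the other cell cycle genes searched by symbol, 5 had a merged region. OsCDKF2 (Os10g0157200) and CDKF;3 (Os03g0847600) belong to the CDKF class, known in Arabidopsis for activating other cyclin-dependent kinases. OsiICK1 (Os02g0762400, also KRP1) is an inhibitor of cyclin-dependent kinases. The retinoblastoma-related gene RBR1 (Os11g0533500) encodes a repressor of cell cycle entry, and CKS1 (Os03g0146300) a small kinase-binding protein. No gene was found for E2F, CDC or anaphase-promoting complex, MCM, ORC or PCNA symbols. How many such genes the genome holds was not counted here, so no share is given.

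The regions of these 5 genes lay near the median of all merged regions or within its spread. Their folds ranged from 2.13 (OsCDKF2) to 4.80 (CKS1) in IP5/mock 5, from 2.83 (CKS1) to 4.04 (OsCDKF2) in IP5/mock 6 and from 2.18 (RBR1) to 4.29 (CKS1) in IP6/mock 6. The medians of the 5 were 2.99, 3.89 and 2.86. None reached 5 in any list, which is also true of 1132 of all 1442 merged regions (78.5%). CDKF;3 was the only gene of the 5 whose region overlapped it, across the start, against 45.2% of all pairs with an overlap. The others lay 614 bp (CKS1) and 2104 bp (RBR1) upstream, and 1540 bp (OsCDKF2) and 2998 bp (OsiICK1) downstream. Other genes were closer to the regions of RBR1 and OsiICK1.

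**Figure D5:**
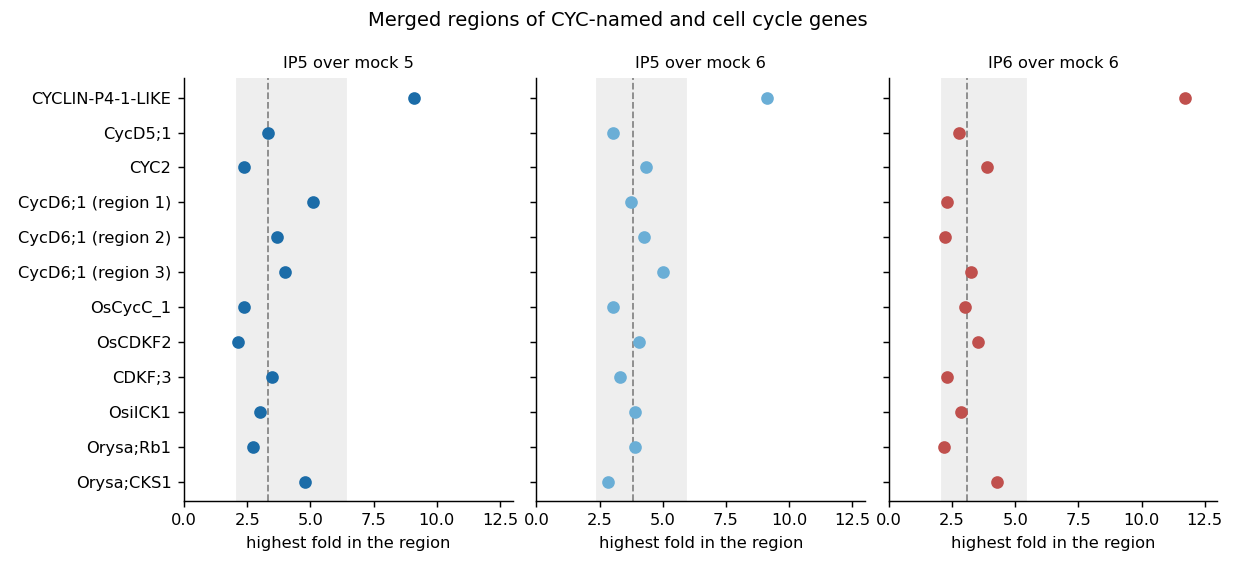
Highest fold per merged region of the CYC-named and other cell cycle genes in each list. Dots are regions, and every peak touching a region counts, also peaks outside the sheet of shared peaks. The dashed line is the median of all 1442 merged regions, and the grey band runs from their 2.5th to their 97.5th percentile. CYCLIN-P4-1-LIKE lies beyond the band in all 3 panels, at 9.11, 9.11 and 11.7, and all other dots lie within it.

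The genes most like CYCLIN-P4-1-LIKE in their 3 folds were ranked by the distance between log2 folds, taking the nearest gene of each region. Os03g0765900 was nearest, at a distance of 0.34, with folds of 9.01, 8.17 and 9.49 in IP5/mock 5, IP5/mock 6 and IP6/mock 6. Like the cyclin gene it is short (664 bp), and its region crossed the start and covered 91.0% of it. The next were OsRLCK31 (Os01g0310500; distance 0.92) with 6.40, 6.56 and 7.74 in a region inside the gene, and OsPHD20 (Os04g0425100; 0.97) with 8.12, 5.14 and 8.35. They were followed by Os07g0516650 (1.00) with 6.53, 9.11 and 6.38 inside the gene, and Os08g0520100 (1.10) with 6.40, 6.40 and 6.61 across its start. Os07g0516650 is the gene whose IP5/mock 6 fold ties with that of the cyclin gene. Likeness here rests on 3 values that share libraries, and it was measured on the folds by which the gene was chosen.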

How the data were processed

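Per the submitters' processing notes, the tools were fastp, Bowtie2, SAMtools, deepTools and MACS2. Their versions and settings and the genome build are not stated, coordinates are those of the deposited files, and no sequence was read. The authors deposited read counts per library and 3 peak lists. The fold of each peak was deposited by the authors, with −log10 p and −log10 q. The authors merged peaks that overlap between lists and assigned the regions to nearby genes, per the file headers. Of the gene ontology table only gene identifiers were used.

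Peaks, genes and merged regions were matched at an overlap of 1 bp or more, as checked on simulated peaks, and q came from the deposited −log10 q. Ranks count peaks of higher fold within 1 list. No test was run, because the gene was chosen for its folds and each list is 1 pair of libraries. Genes were named by 5 rules: the cyclin gene, its neighbours at the region, CYC in the symbol, cell cycle classes by symbol, and the 5 nearest in log2 fold. The gene and lists were chosen with earlier results of these data known. Python 3.11.15, numpy 2.4.6, pandas 2.3.3 and matplotlib 3.10.9 were used.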

Additional observations from a re-analysis of the deposited data

How the results depend on the processing

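No paired analysis was possible because the deposited lists hold 1 value per pair of libraries and no result comes from a test. Of the 8 peaks within 4 kb, 5 overlapped the gene itself, and 3 (1 per list) had a fold of 5 or more. With each library left out in turn, the lists that do not use it held 2 to 6 of them: 2 without IP5, 6 without IP6, 5 without mock 5 and 3 without mock 6. A start peak was present in every list. The share of peaks with a fold at least that of the start peak was 0.0166% in IP5/mock 5, 0.00687% in IP5/mock 6 and 0.066% in IP6/mock 6. Among peaks overlapping a merged region it was 0.0658% and 0.13% in the IP5 lists, and 0.066% and 0.131% when 50% of the peak width had to overlap, since fewer peaks were counted. Ordered by q, the share in IP6/mock 6 was 0.189%. With a reciprocal overlap of 50%, 4 peaks had a partner in another list instead of 7, all of them IP5 peaks paired with IP5 peaks over the other mock. At 1 bp, 5 peaks had a partner from the other IP library, and at 50% there were 0. Of the 5 genes with CYC in the symbol, 1 has cyclin as a word, 2 had a fold of 5 or more in a list, and 3 to 4 had a fold of 3 or more with each library left out. CYCLIN-P4-1-LIKE and CycD6;1 were the 2 that did so in every such setting. Of 6 genes in the cell cycle classes, CYCLIN-P4-1-LIKE included, 2 had a region overlapping the gene and 1 a fold of 5 or more. With CycD6;1, CycD5;1 and OsCycC_1, which the word search for cyclin left out, these were 4 and 2 of 9. The settings for the cell cycle classes were chosen after seeing the data.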
